A study of Mus musculus with 6 samples.

Results

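The Sox factors described here are 10 genes of one transcription factor family that neural progenitor cells are known to use: Sox1, Sox2 and Sox3 (subgroup SoxB1), Sox21 (SoxB2), Sox4 and Sox11 (SoxC), Sox5 and Sox6 (SoxD), and Sox8 and Sox9 (SoxE). They were chosen by gene symbol in the deposited count matrix, which holds 42365 genes, 20 of them of the Sox family, and all 10 were found. RNA was sequenced from 6 libraries of mouse neural progenitor cells (NPC): 2 of knockout clone 1 and 2 of knockout clone 2, both with the genotype KO, and 2 of parental cells with the genotype WT. The labels name no treatment, age, sex, tissue of origin or way of making the knockout, and each knockout clone is a single line whose libraries share that line. The parental libraries are titled as 2 clones, and nothing says whether libraries came from separate cultures, so p-values reflect how far these libraries vary among themselves, and that variation may be technical.

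SOX proteins bind DNA through a high-mobility-group domain that bends the helix, and they usually act with a partner factor bound next to them, such as a POU protein. In the developing nervous system SoxB1 proteins keep cells as progenitors and overlap in function, Sox21 counters them as a repressor, SoxC proteins switch on neuronal genes, and SoxE proteins specify glia. SoxD proteins have no activation domain of their own and modulate the binding of the others.

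RefSeq promoter windows on GRCm38.p6, running from 250 bases before to 50 bases after the annotated start, were available for 8 of the 10 genes and not for Sox3 and Sox9. The windows of the SoxB1 genes Sox1 and Sox2 and of the SoxC genes Sox4 and Sox11 are shown because they set the member with the largest difference beside a subgroup relative that differed little, and a subgroup whose members differed in the same direction. Each is written 5′ to 3′ on the strand of the gene, and capitals mark ACAANG, the core of SOX motifs, or ATGCAAAT, the octamer of POU factors, on either strand. The windows are Sox1 at chr8:12395269-12395568 (plus strand), Sox2 at chr3:34649745-34650044 (plus strand), Sox4 at chr13:28953650-28953949 (minus strand) and Sox11 at chr12:27342669-27342968 (minus strand).
Sox1: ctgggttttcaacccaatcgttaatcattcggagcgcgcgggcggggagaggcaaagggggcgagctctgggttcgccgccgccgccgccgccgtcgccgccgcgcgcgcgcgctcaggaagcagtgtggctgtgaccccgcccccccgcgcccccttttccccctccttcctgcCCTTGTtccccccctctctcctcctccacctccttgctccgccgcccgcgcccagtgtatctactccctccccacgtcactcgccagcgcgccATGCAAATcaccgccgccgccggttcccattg
Sox2: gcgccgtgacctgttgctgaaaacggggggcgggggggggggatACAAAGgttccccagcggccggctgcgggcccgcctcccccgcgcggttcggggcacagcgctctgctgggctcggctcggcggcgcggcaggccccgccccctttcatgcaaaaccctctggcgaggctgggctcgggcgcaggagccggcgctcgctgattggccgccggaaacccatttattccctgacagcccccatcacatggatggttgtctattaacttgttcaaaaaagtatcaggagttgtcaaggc
Sox4: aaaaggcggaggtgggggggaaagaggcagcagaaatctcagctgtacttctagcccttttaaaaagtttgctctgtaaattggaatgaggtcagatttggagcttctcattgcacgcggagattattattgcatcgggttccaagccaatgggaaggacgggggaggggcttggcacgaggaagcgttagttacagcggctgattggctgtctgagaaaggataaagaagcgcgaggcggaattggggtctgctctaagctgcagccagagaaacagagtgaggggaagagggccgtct
Sox11: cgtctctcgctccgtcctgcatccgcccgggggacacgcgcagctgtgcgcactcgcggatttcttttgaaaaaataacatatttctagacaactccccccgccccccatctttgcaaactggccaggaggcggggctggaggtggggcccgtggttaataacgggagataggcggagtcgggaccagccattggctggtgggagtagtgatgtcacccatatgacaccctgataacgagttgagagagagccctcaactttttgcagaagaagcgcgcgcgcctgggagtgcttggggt

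The Sox1 window held 1 ACAANG match, 75 bases before the start, and 1 octamer, 18 bases after it. The Sox2 window held 1 ACAANG match, 206 bases before the start, and no octamer. Neither motif was found in the Sox4 and Sox11 windows, which says only that these letters are not in them. Of all 32544 promoter windows of the same length, 41.1% held ACAANG and 1.75% held ATGCAAAT on either strand. The GC content was 70.7% for Sox1, 66.3% for Sox2, 52.0% for Sox4 and 58.7% for Sox11, against a median of 53.0% over all windows. These RefSeq starts differ from the starts in the GENCODE annotation used for gene positions, so a window need not lie wholly outside the counted exons.

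The libraries held 58871554 to 69530032 counts. Genes with at least 1 count numbered 32686 and 32130 in clone 1, 31262 and 30747 in clone 2, and 37678 and 37419 in parental libraries. What made this difference was not tested, and the kit used for each library, ultra-low input or TruSeq, is not given. Levels are given as CPM (counts per 1000000 counts of the library, after TMM scaling), and levels of different genes are compared only as CPM per kilobase of annotated exon. The clones are called labelled knockout throughout, after their genotype label. Of 12 neural progenitor markers, Prom1 was below 1 CPM in every library. The other 11 exceeded it in at least 1 library, and the summed level of the 12 was 4379 and 4353 CPM in clone 1, 4893 and 4915 CPM in clone 2, and 4997 and 4999.9 CPM in parental libraries. Of these 12, 5 rose, 5 fell and 2 were not called between the clones as replicates and parental cells, against 13.0% higher and 13.6% lower of all genes tested. The counts were 3 higher and 3 lower without parental library 1, and 3 higher and 2 lower without parental library 2. All 5 microglial and all 4 endothelial markers were below 1 CPM in every library, and the 5 fibroblast and mural markers summed to 1.48 to 4.01 CPM.

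The labelled knockout clones were set against parental cells to ask how the level of each Sox gene differed between the genotypes. With each clone as 1 replicate (2 clones, 2 parental libraries), 5 Sox genes rose (Sox3, Sox4, Sox11, Sox5 and Sox8), 4 fell (Sox1, Sox21, Sox6 and Sox9), and Sox2 did not pass edgeR's quasi-likelihood test at an adjusted p of 0.05. Sox1 had by far the largest difference of the 10, at an 18.1-fold lower level in the clones, and Sox9 followed at 3.53-fold lower. In SoxB1, SoxD and SoxE, relatives of the same subgroup moved in opposite directions, while both SoxC genes rose. Among all 24506 genes tested, 26.7% were called, 13.0% as higher and 13.6% as lower. The members are well-expressed genes, and of the 11019 genes that averaged 5 CPM or more 34.6% were called. The median size of the log2 fold change was 1.09 over the 10 Sox genes and 0.44 over all genes tested. No median was taken over genes averaging 5 CPM or more. The members were chosen with earlier results of these data known, so this gap is a description only. Without parental library 1 the counts were 4 higher and 2 lower, and without parental library 2 they were also 4 higher and 2 lower, with Sox4, Sox21 and Sox6 no longer called in either case.

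**Figure D1:**
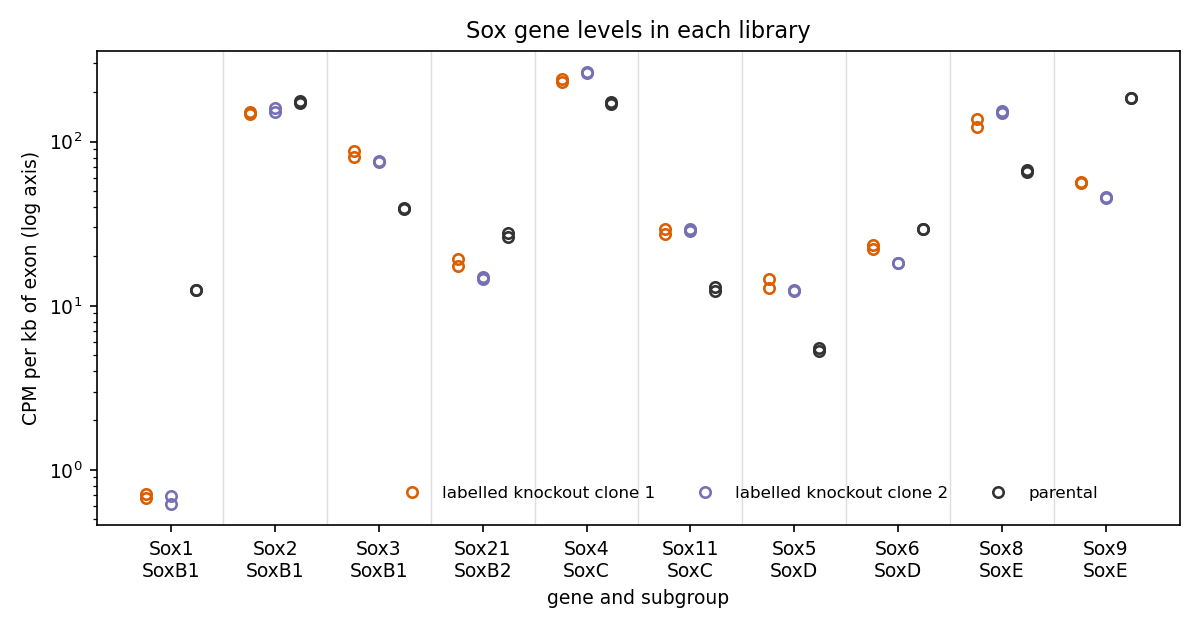
Level of each Sox gene in each library, in CPM per kilobase of exon on a log axis; each circle is 1 of 2 libraries of labelled knockout clone 1, labelled knockout clone 2 or parental cells. The circles of the clones lie wholly above the parental circles for Sox3, Sox4, Sox11, Sox5 and Sox8 and wholly below them for the other 5 genes, with the widest gap for Sox1. The share of all genes that separate in this way was not counted, so it is not shown to be particular to the Sox genes.

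In SoxB1, Sox1 was nearly lost from the RNA of both clones. Sox1 (chromosome 8, 12395295 to 12400126 on GRCm38), whose product is an early marker of neural commitment, had 3.25 and 3.45 CPM in clone 1, 3.004 and 3.34 CPM in clone 2, and 60.5 and 60.4 CPM in parental libraries. These came from 213 and 237 counts in clone 1, 199 and 206 in clone 2, and 3884 and 3562 in parental libraries, so the gene was still detected in every clone library. The groups did not overlap, and the clones' 4 values lay within a narrow band. The log2 fold change was −4.18 ± 0.11 (SE; adjusted p = 0.00013), and 2.13% of all genes tested had a difference of at least that size. Against the parental libraries clone 1 alone gave −4.17 ± 0.081 (adjusted p = 1.54e-16) and clone 2 alone −4.25 ± 0.082 (adjusted p = 1.51e-16).

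Sox3 (chromosome X, 60891366 to 60893430), the X-linked SoxB1 member of early progenitors, moved the other way. It had 166 and 181 CPM in clone 1, 158 and 154 CPM in clone 2, and 80.3 and 81.3 CPM in parental libraries. Every clone library was above both parental libraries, by 2.09-fold in the test (log2 fold change 1.06 ± 0.091, adjusted p = 0.00134). Sox2 (chromosome 3, 34650405 to 34652461), also a core factor of pluripotent cells, had 304 and 313 CPM in clone 1, 329 and 314 CPM in clone 2, and 363 and 353 CPM in parental libraries. All 4 clone libraries were below both parental ones, yet the difference was small and not called with clones as replicates (log2 fold change −0.15, 95% interval −0.37 to 0.065, adjusted p = 0.252), and 79.5% of genes differed by at least as much. The 5 markers of pluripotent cells, which also use Sox2, summed to 2.64 and 2.39 CPM in clone 1, 2.84 and 2.71 CPM in clone 2, and 1.33 and 1.20 CPM in parental libraries. Only 2 of them passed the filter on low counts, and they moved in opposite directions, with Esrrb 4.46-fold higher (adjusted p = 0.00377) and Nanog 5.94-fold lower (adjusted p = 0.0148) in the clones. Nanog was near the floor, at 0.168 and 0.131 CPM in clone 1, 0.0906 and 0.032 CPM in clone 2, and 0.608 and 0.696 CPM in parental libraries. Esrrb had 2.43 and 2.21 CPM in clone 1, 2.73 and 2.66 CPM in clone 2, and 0.655 and 0.492 CPM in parental libraries. In the fit over single libraries Sox2 passed for clone 1 (−0.22 ± 0.042, adjusted p = 0.000358) and for clone 2 (−0.16 ± 0.042, adjusted p = 0.00514). The clone 2 call was lost without parental library 1 (−0.13, adjusted p = 0.122) or without clone 2 library 2 (−0.081, adjusted p = 0.271).

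Sox21 (chromosome 14, 118233232 to 118237030), the SoxB2 repressor that opposes SoxB1 proteins, had 66.1 and 73.6 CPM in clone 1, 57.0 and 55.2 CPM in clone 2, and 105 and 99.9 CPM in parental libraries. The groups did not overlap, with clone 2 the lowest. The level was 1.59-fold lower in the clones (log2 fold change −0.67 ± 0.13, adjusted p = 0.0167). Without parental library 1 the adjusted p was 0.146 and without parental library 2 it was 0.100, at log2 fold changes of −0.63 and −0.70. The lincRNA Gm4675 lies on the opposite strand and overlaps 18.8% of the Sox21 exon bases. It had 59 to 89 counts per library, against 3402 to 6733 for Sox21.

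Both SoxC genes rose. Sox4 (chromosome 13, 28948919 to 28953713), an activator of neuronal genes, had 1154 and 1111 CPM in clone 1, 1259.9 and 1268 CPM in clone 2, and 835 and 813 CPM in parental libraries. Every clone library exceeded both parental libraries, and the difference was 1.49-fold (log2 fold change 0.57 ± 0.10, adjusted p = 0.0140). The call was lost without parental library 1 (adjusted p = 0.187) and without parental library 2 (adjusted p = 0.222). On the opposite strand the annotated lincRNA Gm26735 covers 54.6% of the Sox4 exon bases, and since strand settings are not given, reads of that transcript cannot be told apart from Sox4. Sox11 (chromosome 12, 27334264 to 27342574), which shares much of its activity with Sox4, had 245 and 229 CPM in clone 1, 245 and 239 CPM in clone 2, and 109 and 103 CPM in parental libraries. The clones lay together and wholly above the parental cells, at 2.32-fold (log2 fold change 1.21 ± 0.087, adjusted p = 0.000832).

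The SoxD genes, whose products pair with each other and are known in cortical neurons, oligodendrocyte timing and cartilage, went in opposite directions. Sox5 (chromosome 6, 143828425 to 144781977) had 210.4 and 185 CPM in clone 1, 178 and 177 CPM in clone 2, and 76.0 and 79.7 CPM in parental libraries. It was 2.46-fold higher in the clones (log2 fold change 1.30 ± 0.094, adjusted p = 0.000823), with no overlap of the groups. Sox6 (chromosome 7, 115470872 to 116038796) had 346 and 330.3 CPM in clone 1, 270.2 and 269.5 CPM in clone 2, and 437 and 432 CPM in parental libraries. The clone libraries were all below the parental ones, but unevenly, with clone 2 farther from them than clone 1. The log2 fold change of −0.48 ± 0.12 had an adjusted p of 0.0419, the closest of the 9 calls to the threshold. It was lost without parental library 1 (adjusted p = 0.293), without parental library 2 (0.266), without clone 1 library 2 (0.0703) and with no filter on low counts (0.0545). For both SoxD genes the count sums over many annotated transcripts, 14 for Sox5 and 16 for Sox6, and does not show which of them changed.

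The SoxE genes showed the widest split between subgroup relatives after SoxB1. Sox8 (chromosome 17, 25565892 to 25570686), a glial factor that overlaps with Sox9 and Sox10 in function, had 384 and 427 CPM in clone 1, 465 and 478 CPM in clone 2, and 208 and 205 CPM in parental libraries. The clones lay wholly above, at 2.17-fold (log2 fold change 1.12 ± 0.11, adjusted p = 0.00212). The antisense gene 2810468N07Rik overlaps 10.6% of the Sox8 exon bases and went the other way (log2 fold change −1.19 ± 0.17, adjusted p = 0.00783). It had 5.43 and 5.73 CPM in clone 1, 4.56 and 4.12 CPM in clone 2, and 11.9 and 11.2 CPM in parental libraries, far below Sox8. Sox9 (chromosome 11, 112782224 to 112787760), which induces neural stem cell properties and astrocyte genes, had 236 and 232 CPM in clone 1, 186 and 191 CPM in clone 2, and 764 and 763 CPM in parental libraries. No clone library came near the parental level, and the difference was 3.53-fold (log2 fold change −1.82 ± 0.12, adjusted p = 0.000718), with 11.5% of all genes tested differing by at least as much.

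**Figure D2:**
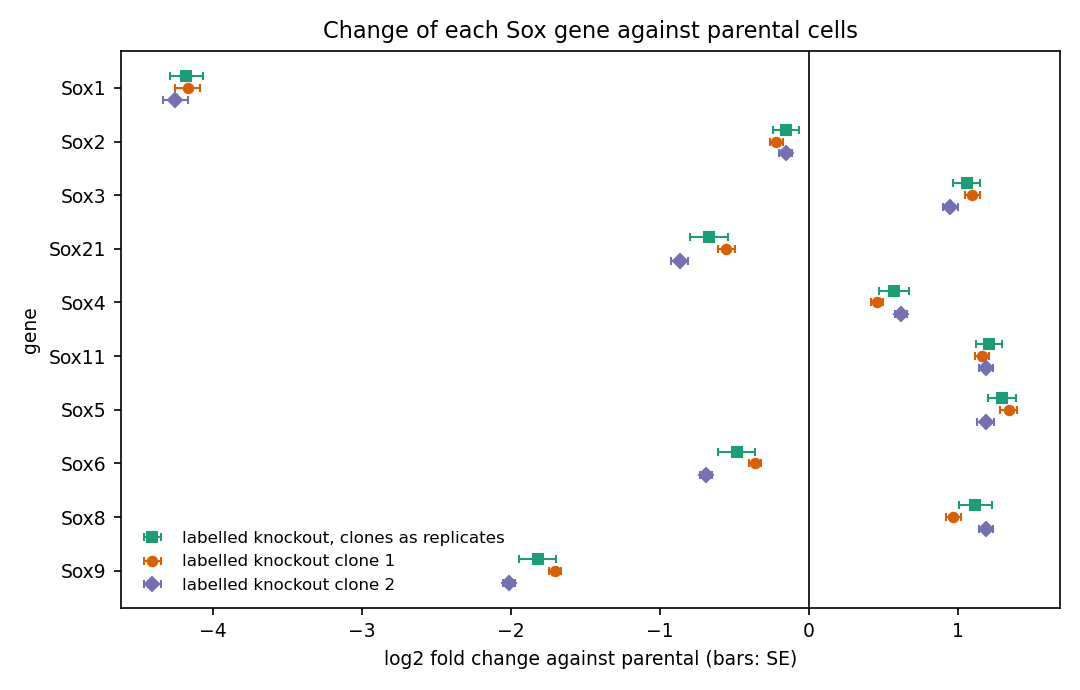
Log2 fold change of each Sox gene against parental cells, with SE bars, for the clones as replicates (squares), labelled knockout clone 1 (circles) and labelled knockout clone 2 (diamonds). The estimates of the clones fall on the same side of 0 for all 10 genes, from −4.25 for Sox1 in clone 2 to 1.34 for Sox5 in clone 1, and sit close to 0 for Sox2 alone.

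Set against parental libraries 1 clone at a time, all 10 Sox genes were called in each clone, 5 higher and 5 lower. This must be read against the background of those fits, in which 54.5% of 23400 genes were called for clone 1 (27.3% higher, 27.2% lower) and 53.5% for clone 2 (26.7% higher, 26.8% lower). Among genes averaging 5 CPM or more the shares were 73.1% for clone 1 and 70.7% for clone 2. Both comparisons use the same parental libraries, so a like direction in the clones is not independent evidence. For every Sox gene the clone libraries also lay wholly above or wholly below the parental ones. The share of all genes that separate in this way was not counted.

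The order of the levels per kilobase of exon differed between the groups. In clone 1 the means were 236 for Sox4, 149.97 for Sox2, 129.9 for Sox8, 83.9 for Sox3, 56.6 for Sox9, 28.5 for Sox11, 22.8 for Sox6, 18.4 for Sox21, 13.7 for Sox5 and 0.693 CPM per kilobase for Sox1, and no neighbours overlapped in their 2 libraries. In clone 2 the order was the same, with 264 for Sox4, 156 for Sox2, 151 for Sox8, 75.7 for Sox3, 45.7 for Sox9, 29.1 for Sox11, 18.2 for Sox6, 14.8 for Sox21, 12.4 for Sox5 and 0.657 CPM per kilobase for Sox1, and only Sox2 and Sox8 overlapped. In parental cells Sox9 led with 185, followed by 174 for Sox2, 172 for Sox4, 66.2 for Sox8, 39.1 for Sox3, 29.3 for Sox6, 27.0 for Sox21, 12.7 for Sox11, 12.5 for Sox1 and 5.41 CPM per kilobase for Sox5, and the neighbours Sox2 and Sox4, and Sox11 and Sox1, overlapped. These lengths are of all annotated exons merged. With the longest transcript as length, Sox5 came to 27.3 CPM per kilobase in clone 1, 24.5 in clone 2 and 10.7 in parental cells, and Sox6 to 39.0 in clone 1, 31.1 in clone 2 and 50.1 in parental cells, all over 1.5 times the values above. The order then changed: Sox6 stood above Sox11 and Sox5 above Sox21 in both clones, Sox8 (157) just above Sox2 (156) in clone 2, and Sox6 above Sox3 in parental cells. By either length Sox9 stood behind Sox4, Sox2, Sox8 and Sox3 in both clones and led in parental cells, and Sox1 stood last in both clones and next to last in parental cells. Among 14954 protein-coding genes ranked by the same measure, Sox1 was at percentile 27.1 in clone 1, 27.2 in clone 2 and 78.3 in parental cells. Sox2 was at percentile 98.9 in clone 1, 98.9 in clone 2 and 99.2 in parental cells.

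Summed per subgroup, SoxB1 RNA was nearly the same in the groups while its make-up was not. Sox1, Sox2 and Sox3 together came to 235 ± 8.55 CPM per kilobase in clone 1, 233 ± 6.57 in clone 2 and 226 ± 3.10 in parental cells (SD, n = 2 libraries each). Sox1 made up 0.296% of that sum in clone 1, 0.283% in clone 2 and 5.54% in parental cells. Sox3 made up 35.7% in clone 1, 32.5% in clone 2 and 17.3% in parental cells. Sox2 held the largest share in every library, with means of 64.0% in clone 1, 67.2% in clone 2 and 77.1% in parental cells. The means of the SoxB1 sum lay closer together than the 2 libraries of clone 1, at 229 and 241 CPM per kilobase, while the shares of Sox1 and Sox3 did not overlap between clones and parental cells.

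In SoxE the order of the pair was reversed. Sox8 held 69.6% of the SoxE sum in clone 1, 76.8% in clone 2 and 26.4% in parental cells, and Sox9 held the rest. The sum itself was 186 CPM per kilobase in clone 1, 197 in clone 2 and 251 in parental cells. In SoxD, Sox6 remained the larger member, but Sox5 held 37.6% of the sum in clone 1, 40.4% in clone 2 and 15.6% in parental cells. In SoxC, Sox4 dominated in every library and Sox11 held 10.8% of a sum of 265 CPM per kilobase in clone 1, 9.94% of 293 in clone 2 and 6.89% of 185 in parental cells. These shares are descriptions without a test. In bulk RNA, fewer cells of a type and less RNA per cell cannot be told apart, for these shares and for every level given here.

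**Figure D3:**
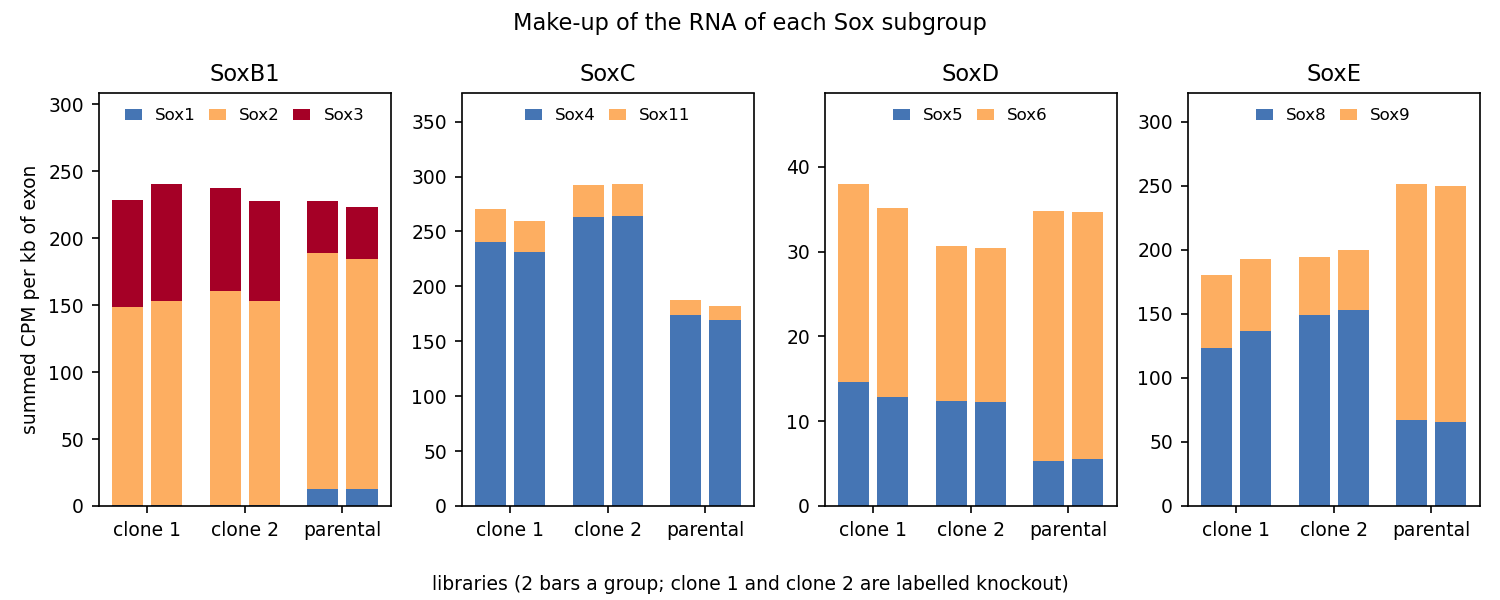
Summed level of each subgroup, in CPM per kilobase of exon, split by gene; each bar is 1 library, with 2 bars each for labelled knockout clone 1, labelled knockout clone 2 and parental cells, and each panel has its own axis from 0. The SoxB1 bars are of like height in all 6 libraries, and Sox8 makes up most of the SoxE bars of both clones and Sox9 most of the parental ones.

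The clones were next compared with each other, which asks whether lines of the same labelled genotype share their Sox levels. Between clone 2 and clone 1, 7 of the 10 Sox genes were called, 2 higher (Sox4 and Sox8) and 5 lower (Sox3, Sox21, Sox5, Sox6 and Sox9), on a background of 36.4% of 23400 genes (16.1% higher, 20.3% lower) and 58.1% of those averaging 5 CPM or more. The median size of the log2 fold change over the 10 Sox genes was 0.16 between the clones. Against parental cells it was 1.04 for clone 1 and 1.07 for clone 2. The farthest apart between the clones was Sox6, at 270.2 and 269.5 CPM in clone 2 and 346 and 330.3 CPM in clone 1 (log2 fold change −0.33 ± 0.041, adjusted p = 1.08e-05). That is near the Sox6 difference of −0.36 between clone 1 and parental cells. Sox21 differed by −0.32 between the clones and by −0.55 between clone 1 and parental cells. Sox9 also was lower in clone 2 than in clone 1 (−0.31 ± 0.040, adjusted p = 1.47e-05), and for the 5 called genes Sox21, Sox4, Sox6, Sox8 and Sox9 clone 2 lay farther from parental cells than clone 1 did. Sox1, Sox2 and Sox11 were not called, and their 95% intervals were −0.29 to 0.13 for Sox1, −0.029 to 0.15 for Sox2 and −0.070 to 0.13 for Sox11. The calls of Sox3 and Sox5, at −0.15 each, were lost without any of several single libraries. For Sox3 the adjusted p was 0.105 without parental library 1, 0.108 without parental library 2, 0.0926 without clone 1 library 2, 0.128 without clone 2 library 1 and 0.268 without clone 2 library 2. For Sox5 it was 0.115 without parental library 1, 0.117 without parental library 2, 0.518 without clone 1 library 1, 0.186 without clone 2 library 1 and 0.246 without clone 2 library 2. With upper quartile scaling it was 0.0646 for Sox3 and 0.110 for Sox5.

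Of the other 10 Sox family genes in the matrix, 7 were below 1 CPM in every library and only 4 passed the filter on low counts. None of these 4 was called with clones as replicates at an adjusted p of 0.05, against 26.7% of all genes tested (edgeR adjusted p of 0.0652 for Sox15, 0.0894 for Sox12, 0.156 for Sox13 and 0.829 for Sox10). At an unadjusted p under 0.05 edgeR gave 2 of the 4 as higher and 0 as lower, and DESeq2 called 0 of the 4 after adjustment. With no filter on low counts Sox12 (adjusted p = 0.0457) and Sox15 (0.0491) were called higher. With the clone effects averaged over single libraries Sox12 (0.000301) and Sox15 (0.00642) were called higher and Sox13 (0.00025) lower. Set against parental libraries 1 clone at a time, 2 of the 4 were called higher and 2 lower in clone 1, and 3 higher and 1 lower in clone 2. Those fits called 54.5% of all genes for clone 1 and 53.5% for clone 2. Sox15 was near the floor, at 0.275 and 0.35 CPM in clone 1, 0.287 and 0.292 CPM in clone 2, and 0.125 and 0.0339 CPM in parental libraries. Sox10, the SoxE gene of oligodendrocytes and neural crest, had 0.595 and 0.685 CPM in clone 1, 2.42 and 2.64 CPM in clone 2, and 1.56 and 1.20 CPM in parental libraries. Its clones lay on opposite sides of the parental cells, with a log2 fold change of 1.98 ± 0.21 between clone 2 and clone 1 (adjusted p = 1.92e-06).

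Genes known as partners or targets of SoxB1 proteins in progenitors mostly rose. Of 20 listed, 19 were tested with clones as replicates, 13 rose, 3 fell and 3 were not called, with a median log2 fold change of 0.53 against 0.032 over all genes tested. The shares over all genes tested were 13.0% higher and 13.6% lower. Among genes averaging 5 CPM or more, 34.6% were called in either direction. Without parental library 1 or without parental library 2, 6 were called higher, and without parental library 2, 1 lower. Fabp7, a lipid carrier of radial glia, had 631 and 572 CPM in clone 1, 617 and 595 CPM in clone 2, and 168 and 161 CPM in parental libraries (log2 fold change 1.91 ± 0.087, adjusted p = 0.00031). Hes1, a Notch target that keeps progenitors undifferentiated, rose by 1.64 on the log2 scale, and the progenitor filament gene Nes by 1.19. Gli2, an effector of Hedgehog signalling, fell by 2.48 on the log2 scale. The proliferation markers moved beside this list: all 10 rose, and their summed level was 1191 and 1176 CPM in clone 1, 788 and 797 CPM in clone 2, and 67.5 and 67.6 CPM in parental libraries. Their part in the Sox results was not tested.

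The neuronal genes tied to SoxC moved in both directions, while Sox4 and Sox11 rose. Of 14 listed, 12 were tested, 2 rose, 5 fell and 5 were not called, against 13.0% higher and 13.6% lower of all genes tested. The median log2 fold change was 0.40, opposite in sign to most calls. It was −0.61 for clone 1 alone and 0.072 for clone 2 alone. The list summed to 1937 and 1760 CPM in clone 1, 1477 and 1466 in clone 2, and 1326 and 1340 in parental libraries. Without parental library 1, and likewise without parental library 2, 1 gene was called higher. The 4 genes with the smallest adjusted p all fell. Dcx, which encodes a microtubule protein of migrating neurons, fell by 2.80 on the log2 scale. The RNA-binding protein gene Elavl3 fell by 2.14, the neuronal tubulin gene Tubb3 fell by 2.13, and the proneural factor gene Neurog2 fell by 4.19. Neurog2 was low in all groups, at 0.0153 and 0.0729 CPM in clone 1, 0.0453 and 0.0649 CPM in clone 2, and 1.03 and 0.865 CPM in parental libraries. Over the 8 neuron markers edgeR called 0 higher (0 at an unadjusted p under 0.05, and 1 by DESeq2) and 4 lower, and their summed level was 1506 and 1351 CPM in clone 1, 1064 and 1041 CPM in clone 2, and 1067 and 1075 CPM in parental libraries. Their part in the SoxC result was not tested.

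Glial genes tied to Sox9 were split between lower and not called, with Aqp4 and Gfap far lower in both clones. Of 14 glial genes tied to Sox9 and its partner Nfia, all tested, 1 rose, 5 fell and 8 were not called, against 13.0% higher and 13.6% lower of all genes tested, with a median log2 fold change of −0.57. Without parental library 1 the counts were 0 higher and 2 lower, and without parental library 2 also 0 and 2, and without clone 1 library 2 none was called higher. Aqp4, the astrocyte water channel, had 27.7 and 22.6 CPM in clone 1, 29.1 and 28.3 CPM in clone 2, and 739 and 745 CPM in parental libraries (log2 fold change −4.75 ± 0.12, adjusted p = 0.00013). Gfap, the astrocyte filament gene, had 1.53 and 1.65 CPM in clone 1, 9.50 and 9.91 CPM in clone 2, and 2663 and 2719 CPM in parental libraries (adjusted p = 0.0121). Those clones differed from each other as well as from parental cells, and the Gfap call was lost without parental library 1 (adjusted p = 0.349), without parental library 2 (0.352) and with no filter on low counts (0.105). Id4, an inhibitor of bHLH factors, fell by 2.31 and the glutamate transporter gene Slc1a3 fell by 0.53 on the log2 scale. The Slc1a3 call was lost without parental library 1 (adjusted p = 0.225) or parental library 2 (0.209). Over the 8 astrocyte markers, 5 of which are also in the glial list, 1 rose, 4 fell and 3 were not called. None of them was called higher without parental library 1, without parental library 2 or without clone 1 library 2. Their summed level was 1649 and 1637 CPM in clone 1, 2583 and 2603 CPM in clone 2, and 5658 and 5693 CPM in parental libraries, and their part in the Sox9 result was not tested.

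Of 13 cartilage matrix genes that the Sox5, Sox6 and Sox9 proteins are known to activate in chondrocytes, 12 were tested, 6 fell and 6 were not called by edgeR, with a median log2 fold change of −1.12. Over all genes tested 13.0% were called higher and 13.6% lower, with a median of 0.032. Acan, Matn1, Matn4, Hapln1 and Comp were below 1 CPM in every library. Of the 12, 0 were called higher, 1 was higher at an unadjusted p under 0.05, and DESeq2 called 1 higher. The proteoglycan gene Fmod fell by 6.68, the collagen gene Col9a2 fell by 1.44, Col11a2 fell by 1.28, and Col2a1 fell by 2.25, all on the log2 scale. Fmod was near the floor in the clones, with 0.0458 and 0.0437 CPM in clone 1 and 0.136 and 0.0325 CPM in clone 2. Its parental libraries had 7.26 and 6.62 CPM. Col2a1, the lowest of them in parental libraries, had 0.259 and 0.248 CPM in clone 1, 0.136 and 0.146 CPM in clone 2, and 1.09 and 0.831 CPM in parental libraries. The Col11a2 call was lost without parental library 1 (adjusted p = 0.0843) and without parental library 2 (0.0590).

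Among 11 oligodendrocyte lineage genes under Sox control, 10 were tested, 4 rose, 3 fell and 3 were not called, and the median log2 fold change was −0.053. The shares over all genes tested were 13.0% higher and 13.6% lower. Olig2, the lineage factor of oligodendrocyte precursors, had 1761 and 1677 CPM in clone 1, 1723 and 1755 CPM in clone 2, and 406 and 417 CPM in parental libraries (log2 fold change 2.10 ± 0.089, adjusted p = 0.000267). Its relative Olig1 rose by 2.54 and the homeobox gene Nkx2-2 by 1.90 on the log2 scale. Gpr17, a receptor of committed precursors, fell by 3.75. Of the 6 oligodendrocyte precursor markers 4 rose, 1 fell and 1 was not called, with a summed level of 5296 and 5400 CPM in clone 1, 6229 and 6499 CPM in clone 2, and 1438 and 1445 CPM in parental libraries. Of 6 mature oligodendrocyte markers 5 were tested, 3 fell and 2 were not called, and Mog, Mag and Mobp were below 1 CPM in every library. Of these, 1 was called lower without parental library 1, and likewise 1 without parental library 2. Their part in the Sox8, Sox5 and Sox6 results was not tested.

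**Figure D4:**
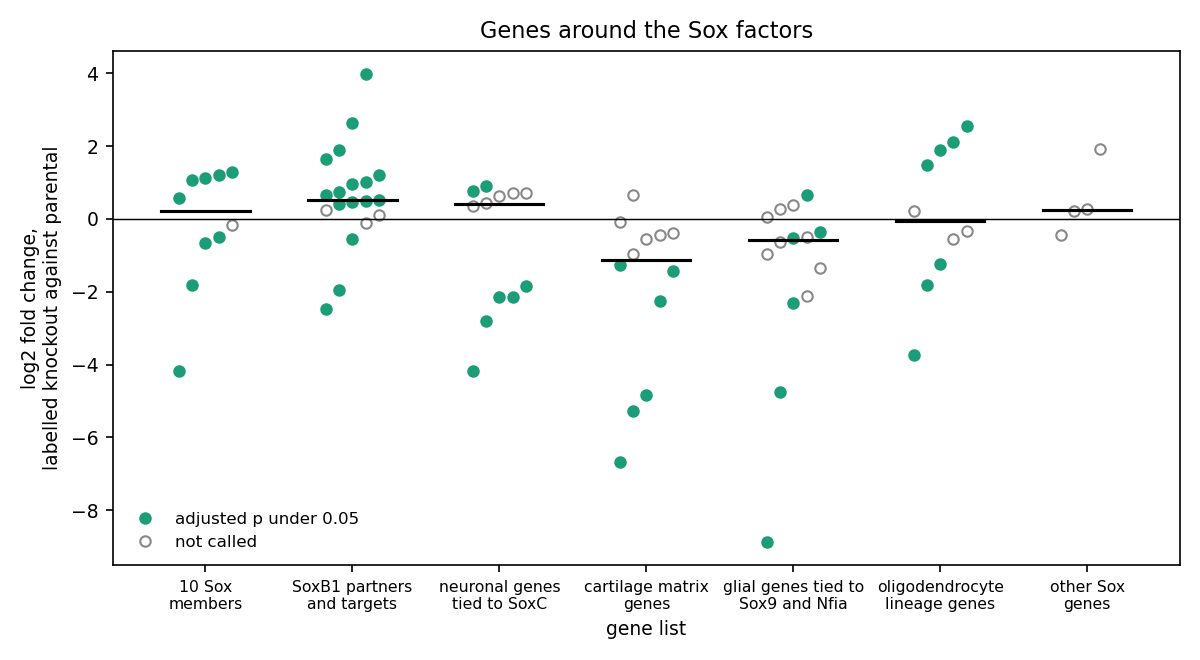
Log2 fold change, labelled knockout against parental with clones as replicates, of the 10 Sox genes and of the 6 lists of genes around them; filled points passed an adjusted p of 0.05, open points did not, and black lines are medians. The SoxB1 list lies mostly above 0, the cartilage list mostly below 0, and the Sox genes themselves lie on both sides.

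The genes whose pattern over the 6 libraries was most like that of a Sox gene were found by Euclidean distance between mean-centred log2 CPM, among 10172 protein-coding genes averaging 5 CPM or more. Nearest to Sox1 were Cul9 at a distance of 0.22, Rnase1 at 0.255 and Drp2 at 0.343, against a median distance of 4.91. Rnase1, a secreted ribonuclease gene, had 33.7 and 29.3 CPM in clone 1, 31.1 and 30.6 CPM in clone 2, and 546 and 582 CPM in parental libraries. Nearest to Sox9 were 2310022B05Rik at 0.045, Pxdn at 0.0659 and Thbs3 at 0.101 (median 2.25). Pxdn, a peroxidase gene of the extracellular matrix, had 73.5 and 71.4 CPM in clone 1, 58.8 and 57.3 CPM in clone 2, and 239 and 230.2 CPM in parental libraries. Nearest to Sox5 were Pbx3 at 0.101, Prcp at 0.106 and Spred2 at 0.117 (median 1.496), and nearest to Sox11 were Sh3gl2 at 0.107, Slc46a3 at 0.108 and Chst11 at 0.114 (median 1.40). With 3 groups of 2 libraries each, these distances mostly compare 3 group means and are a description only.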

How the data were processed

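The authors deposited 1 matrix of whole-number read counts per Ensembl gene, not normalized, for 6 libraries. Per the labels' protocols, RNA was purified on columns and libraries were made with an ultra-low input kit or a TruSeq kit, with the kit of each library not given. The tools and builds named, per the submitters' processing notes, are STAR, featureCounts, GRCm38.p6 and mm10. For versions and strand settings the sources used here give nothing. Reads are not independent molecules.

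Columns were matched to samples by the library names in the sample descriptions, and groups came from titles. The gene altered in the knockout clones is not reported here. Genes were placed with GENCODE M21 (GRCm38), and members shared no 50-base exon sequence with each other, though Sox4, Sox21, Sox8, Sox5 and Sox1 shared some with other genes. edgeR 4.0.16 (R 4.3.3; TMM, filterByExpr with a minimum count of 10, robust quasi-likelihood test, Benjamini-Hochberg over all genes tested, threshold 0.05) was run on 4 columns, with the libraries of each clone summed, and on all 6 libraries in 3 groups. SE is the log2 fold change divided by the root of F. The fit on 6 libraries shares 1 estimate of spread over the groups, but the libraries of clone 1 differed most from each other. The chi-square per gene between the libraries of a group was 23.0 in clone 1, 5.01 in clone 2 and 3.67 in parental cells. The method was tested on simulated data with the same spread for every gene and no variation between clones. That simulation cannot show how the test behaves where clones differ, as they do here. Alternatives were DESeq2 1.42.0, other scalings and filters, a replicate block and leaving out each library. All 10 members are named, with up to 4 genes per list by smallest adjusted p. Members and lists were chosen with earlier results of these data known.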

Additional observations from a re-analysis of the deposited data

Results flagged for a closer look

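The effects of the clones against the same parental libraries differed for 7 Sox genes by the test of clone 2 against clone 1, in log2 units with edgeR's adjusted p. Sox6 was lower in clone 2 by −0.33 (adjusted p = 1.08e-05), Sox21 by −0.32 (0.000283) and Sox9 by −0.31 (1.47e-05), and all 3 were farther below parental cells in clone 2 than in clone 1. Sox8 was higher in clone 2 by 0.22 (0.00192) and Sox4 by 0.16 (0.00534), both farther above parental cells. Sox3, at −0.15 (0.0227), and Sox5, at −0.15 (0.0366), were closer to parental cells in clone 2. Of all genes tested, 36.4% were called in this comparison. Groups of 2 libraries are too small to look for a sample far from the others.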

How the results depend on the processing

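Over 12 alternatives, the 10 Sox genes kept direction and call in 111 of 120 cases with clones as replicates (8 lost and 1 gained a call), 120 of 120 for clone 1, 117 of 120 for clone 2 (3 lost) and 104 of 120 between clones (14 lost and 2 changed sign while not called). Sox1 stayed between −4.26 and −4.09 and Sox9 between −1.90 and −1.73 on the log2 scale with clones as replicates. When 1 library was left out, the count of Sox genes lower ranged over 2 to 4 with clones as replicates and over 3 to 5 between clones. Between clones it was 3 with upper quartile scaling and 3 among genes averaging 5 CPM or more. With 1 library left out, the clone 2 minus clone 1 value of Sox1 ranged from −0.14 to 0.018, positive without clone 2 library 1, and that of Sox11 from −0.024 to 0.096, negative without clone 1 library 2, none of them called. Sox2 was called at −0.19 (adjusted p = 0.000337) and Sox10 turned to −0.12 (0.592, not called) when the clone effects were averaged over single libraries. Averaging over single libraries also gave 6 higher in the SoxC list (2 with clones as replicates), 3 higher and 10 lower in the glial list (1 and 5), 1 higher in the cartilage list (0) and 5 lower in the oligodendrocyte list (3), 2 higher among astrocyte markers (1) and 2 among neuron markers (0), 2 lower among oligodendrocyte precursor markers (1), and 2 higher and 1 lower among the other Sox genes (0 and 0). Among genes averaging 5 CPM or more there were 3 lower in the SoxC list (5), 0 higher in the glial list (1), 1 lower in the cartilage list (6) and 1 lower in the oligodendrocyte list (3), 0 higher among astrocyte markers (1) and 0 lower among mature oligodendrocyte markers (3), with fewer genes tested. With no filter on low counts there were 4 higher in the SoxC list, 2 in the glial list and 1 in the cartilage list, and 2 higher and 1 lower among the other Sox genes. DESeq2, run with no filter, also gave 1 lower there, a gene outside the 4 that passed the filter. With the longest transcript as gene length, Sox6 held 58.9% of SoxD in clone 1, 55.9% in clone 2 and 82.4% in parental cells, and Sox9 held 22.5% of SoxE in clone 2 and 72.8% in parental cells. The cause was not tested, except that the share follows from the shorter length. A fit with the replicate number as a block gave the same 5 higher and 5 lower in each clone. Same-numbered libraries did not deviate together (correlations of −0.0152 to 0.0191). With only 2 libraries a group this cannot show that they shared no batch, and the labels do not say. Leaving out 1 library leaves a lone one that is assumed to vary like the other groups. Every Sox gene had at least 199 counts in each library, while each group held only 2 libraries.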

Other observations

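The long noncoding genes Sox1ot and Sox2ot overlap Sox1 and Sox2 without sharing exon bases. Sox1ot had 82 and 84 counts in clone 1, 33 and 21 in clone 2, and 169 and 145 in parental libraries. It was not called with clones as replicates (log2 fold change −1.59 ± 0.50, adjusted p = 0.071 in edgeR), and was lower in clone 2 than in clone 1 (−1.55 ± 0.24, adjusted p = 0.000109), unlike Sox1 itself, which was not called between the clones. Against parental libraries edgeR called Sox1ot lower in clone 1 alone (−1.04, adjusted p = 0.000216) and in clone 2 alone (−2.59, adjusted p = 5.23e-08). Under the alternatives the call with clones as replicates was gained with DESeq2 (adjusted p = 0.00975). It was also gained in edgeR with the clone effects averaged over single libraries (−1.82, adjusted p = 1.29e-07).

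Sox2ot had 6.79 and 5.94 CPM in clone 1, 5.51 and 4.71 CPM in clone 2, and 8.73 and 9.11 CPM in parental libraries. All clone libraries were below both parental ones (log2 fold change −0.60 ± 0.17, adjusted p = 0.0494), a larger fall than that of Sox2 in the same libraries. The difference between the falls was not tested. The call was lost without parental library 1 (adjusted p = 0.319), without parental library 2 (0.368), without clone 1 library 2 (0.0948), without clone 2 library 1 (0.0604) and with no filter on low counts (0.0891).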
